A study of Arabidopsis thaliana with 27 samples.

Results

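The 100 probe sets described here had the most apical-sided signal at 3 consecutive stages of the Arabidopsis thaliana embryo, out of 22746 probe sets that are not array controls. Each probe set was scored by the smallest of 3 log2 differences, namely globular apical minus globular basal, heart cotyledon minus heart root, and torpedo apical minus torpedo basal, and the 100 highest scores were kept. The members were thus chosen by measured values of these arrays. The signals were intensities on a linear scale, and differences were taken between group means of log2(signal + 10), on which the change of a dim gene comes out too small. The rule also left out 10 genes by name, and it would have taken none of them, since their scores ranked between 219 (NGA1) and 11454 (YAB5). Because the members were selected on these 3 differences, they are given as a description with no test.

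The upper part of a plant embryo forms the cotyledons and the shoot apex, and the lower part forms the hypocotyl, the root and its stem cells. This apical-basal axis is laid down when the zygote divides and is kept through the globular, heart and torpedo stages by auxin flow and by transcription factors with opposed domains. Many housekeeping functions, such as organelle gene expression and primary metabolism, are also needed as the cotyledons grow.

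RNA of laser-dissected tissues of Col-0 wild-type embryos, with no treatment given in the labels, was measured on 27 Affymetrix ATH1 arrays. The groups, in the order used below, were globular apical and globular basal, heart cotyledon and heart root, torpedo apical and torpedo basal, and torpedo cotyledon, torpedo meristem and torpedo root. There were 3 arrays in each of 7 groups and 2 in each of the torpedo cotyledon and torpedo root groups. 2 further arrays, whose titles and tissue descriptions named opposite tissues of the torpedo stage, have no group here. Nothing in the labels says which plants or embryos a capture came from, so a p-value here reflects the spread among arrays, and that spread may be technical. For globular apical 1 the labels describe other growth conditions than for the rest. In such bulk captures, fewer cells of a type and less RNA per cell cannot be told apart.

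The arrays were noisy, and some stood apart. The highest correlation between any pair of arrays was 0.877, and the median of each array's correlations ran from 0.249 (torpedo root 3) to 0.586. The 18 probe sets for hybridization controls had geometric means from 379.8 (torpedo apical 5) to 71930 (torpedo root 3), while the trimmed mean signal was held near 100 on every array. The root-pole markers BBM and JKD had a summed signal of 516.2 to 678.9 on the heart root arrays, against 15.8 to 94.0 on the heart cotyledon arrays. On the globular basal arrays the sum was 15.1, 2861 and 144.6, against 234.3, 81.4 and 45.5 on the globular apical arrays. The groups of the globular stage thus overlapped in these markers. BBM and JKD went opposite ways there, with apical minus basal log2 differences of -1.04 and 0.36. The sum of BBM and JKD was 148.0 to 656.0 on torpedo basal arrays, against 9.24 to 23.2 on torpedo apical arrays. On the 2 torpedo root arrays it was only 20.3 and 32.2, within the range of 16.1 and 144.6 on the torpedo cotyledon arrays. These root captures thus lacked the summed signal of these markers. The torpedo cotyledon minus root difference was -0.16 for BBM and 0.93 for JKD. LHW, the other listed root pole gene with a name on the array, had differences of -1.23, -0.59 and 0.38 at the globular, heart and torpedo stages.

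Of the 100 members, 46 mapped to 1 gene and 54 have no gene in the platform table used here, so that they are called by their probe set. All 46 genes are distinct, and no pair of them are direct neighbours in the RefSeq gene order of TAIR10.1. Only VTC4, LSM6B and AUR3 carry a symbol other than a locus code. All 100 passed the filter on low values, a signal of 50 on at least 2 of the 25 grouped arrays, which 20890 of all probe sets passed. They passed it partly through the groups in which they were chosen to be high.

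The listed genes of embryo patterning that carry a name on the array were not among the members, although the 54 probe sets without a gene could not be checked. Most listed genes carry no name there. Those with a name were 3 of 16 genes of cotyledon and leaf polarity, 5 of 20 of lateral organ growth and 3 of 13 of shoot apex and organ boundary. They were also 8 of 19 of auxin synthesis, transport and inactivation, 3 of 19 of root pole and 7 of 28 of photosynthesis. Of these 7, 5 encode photosystem or antenna subunits and RCA and PRK serve carbon fixation. None was a member. The rule left out YAB3, YAB5, PHV, NGA1, JAG, GH3.3 and YUC4 of these lists by name, but their scores were too low to be taken. YAB3, a YABBY transcription factor of the lower side of leaves and cotyledons, came near with a score of 0.66, limited by the heart stage. NGA1, a B3-domain factor that restrains lateral organ growth, had a score of 0.71, limited by the globular stage. Both had a torpedo difference above 3.5 (3.55 for YAB3 and 3.60 for NGA1), so it was the smaller early differences that kept them from the 100 highest scores.

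Member scores ran from 2.32 for probe set 267452_at to 0.89 for 250284_at, with a median of 1.04. A score of at least 1, that is at least 2-fold at each of the 3 stages, was reached by 60 members. With the signs turned, 18 probe sets reached that size on the basal side, and the 100th basal score was 0.68 against 0.89 on the apical side. Over all probe sets, 12.0% had a positive difference at all 3 stages and 9.29% a negative one. The limit cut through a continuous range. The last members, 256978_at, AT3G62000 and 250284_at, had scores of 0.90, 0.90 and 0.89, and the first probe sets outside, AT2G26800, AT1G53645 and AT1G49840, all had 0.89.

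**Figure D1:**
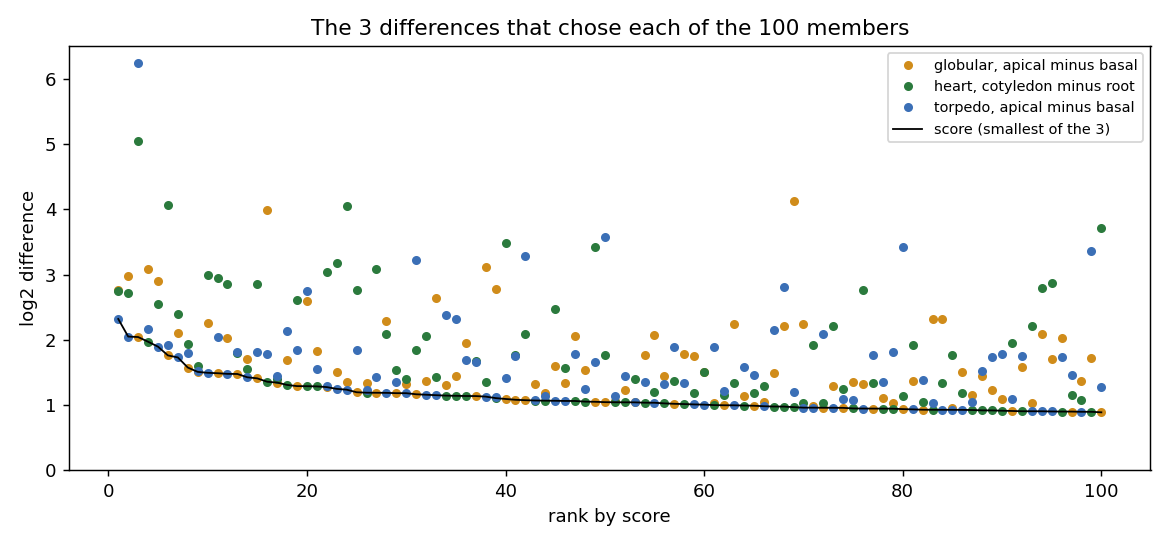
Log2 difference (vertical axis) of each member at the 3 stages against its rank by score (horizontal axis), with the score, the smallest of the 3, as a line. The score falls from 2.32 to 0.89, while single differences reach 6.24 at the torpedo stage.

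No stage alone set the membership. The median difference of the members was 1.37 at the globular stage, 1.36 at the heart stage and 1.43 at the torpedo stage, beside medians over all probe sets of -0.06, 0.28 and -0.15. The smallest of the 3 differences was the globular one in 31 members, the heart one in 35 and the torpedo one in 34. A difference of at least 2 was found in 24 members at the globular, 28 at the heart and 17 at the torpedo stage. The median log2 signal of the members was 7.50 over the apical and cotyledon arrays, against 5.73 over the basal and root arrays. All probe sets had medians of 5.81 and 5.79 over the same arrays, but the basal stages differed. In globular basal captures the median was 5.51 over the members and 6.04 over all probe sets, in heart root captures 5.46 and 5.66, and in torpedo basal captures 6.23 and 5.59.

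Complete separation of the replicate arrays was counted at each stage. The 3 apical arrays all lay above the 3 basal arrays in 24 members at the globular stage, where 3.58% of all probe sets did so. At the heart stage 20 members had all cotyledon arrays above all root arrays (5.8% of all probe sets), and at the torpedo stage 32 members had all apical arrays above all basal arrays (4.65%). The rule chose on these same contrasts, so nothing is read from these counts. In 48 members the groups overlapped at every stage, in 32 they were apart at 1 stage and in 16 at 2 stages. The shares of all probe sets for these 3 counts were not taken, so nothing is read from them either. 4 members, AT1G32220, AT2G24300, 258369_at and 253749_at, had groups apart at all 3 stages, as did 6 (0.0264%) of all probe sets.

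AT1G32220 was the named member with the highest score among those 4. Its signal was 35.2, 96.9 and 50.8 in globular apical captures, against 10.7, 8.1 and 25.5 in globular basal captures. In heart cotyledon captures it was 124, 88.2 and 2507, against 75.9, 25.1 and 13.8 in heart root captures. In torpedo apical captures it was 686.1, 271.3 and 522.1, against 154.5, 59.7 and 121.3 in torpedo basal captures. The order held on every array, but the heart group was carried in size by 1 cotyledon array. The differences were 1.49, 2.95 and 2.04. Its signal in the torpedo captures that the rule did not use was 161.4 and 105.7 in cotyledon, 41.9, 117.1 and 25.5 in meristem and 30.1 and 117.8 in root.

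AT2G24300, of the CBP60 family of calmodulin-binding proteins, separated the groups at a far lower level. It had signals of 33.2, 35.6 and 90.1 in globular apical captures, against 5.0, 6.9 and 24.0 in globular basal captures. Heart cotyledon captures had 34.4, 15.0 and 37.7, against 4.2, 12.2 and 4.5 in heart root captures. Torpedo apical captures had 21.4, 39.9 and 42.7, against 4.99, 16.9 and 19.9 in torpedo basal captures. These levels stand close to the pseudocount, and the differences of 1.51, 1.18 and 0.93 understate the ratio of the signals. Probe set 258369_at had close replicate values in torpedo apical captures. Its torpedo apical signals were 157.1, 171.8 and 170.5, against 38.3, 13.6 and 45.7 in torpedo basal captures.

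The 3 highest scores belonged to probe sets with no gene in the table. Probe set 267452_at had signals of 1191, 220.6 and 1736 in globular apical captures, against 52.5, 199.9 and 107.3 in globular basal captures. Torpedo apical captures had 652.2, 310.3 and 537.3, against 53.3, 50.2 and 234.3 in torpedo basal captures. The groups were apart at both of these stages, while at the heart stage root 1, with 101.5, lay above cotyledon 2, with 68.9. Probe set 248807_at, next but one by score, had the largest heart and torpedo differences of all members, 5.06 and 6.24. Its torpedo apical signals of 7001, 8477 and 5535 stood far above those of 194.3, 86.5 and 28.6 in torpedo basal captures. In heart cotyledon captures, however, it had 1610, 19.0 and 13080, with cotyledon 2 at 19.0 lying between the root values of 13.2, 33.4 and 6.6.

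The named members are ordered below by role. These groups were made after the values were seen and were not compared with all probe sets, so nothing is said of whether a role is over-represented. The first named members encode proteins that handle RNA. AT5G27460, a protein of the pentatricopeptide and related repeat families that act mainly on organelle transcripts, had the highest score of a named gene, 1.97. Its signal was 513.6, 288.2 and 54.6 in globular apical captures, against 16.3, 9.1 and 23.2 in globular basal captures. Heart cotyledon captures had 504.8, 62.6 and 8.5, against 7.4, 8.1 and 26.4 in heart root captures. Torpedo apical captures had 124.7, 399.6 and 943.4, against 313.2, 14.2 and 63.4 in torpedo basal captures. Only the globular groups were apart, and the lowest cotyledon and apical arrays lay inside the range of the other side at the later stages. AT4G02750, a pentatricopeptide repeat protein, had globular apical signals of 2229, 242.3 and 18.3, against 122.8, 4.6 and 93.5 in globular basal captures, so that its groups overlapped in spite of a difference of 2.11. Another protein of these repeats, AT3G29230, had differences of 0.94, 1.13 and 3.43.

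AT1G34150, of the pseudouridine synthase family that modifies RNA bases, had globular apical signals of 2702, 3941 and 36.1, against 2810, 13.8 and 22.9 in globular basal captures. The brightest basal array thus lay above an apical one. At the torpedo stage the groups were apart, with 107.5, 321.3 and 97.6 in apical captures, against 5.29, 10.9 and 33.5 in basal captures. AT3G46210, the RRP46-type subunit of the RNA exosome, was apart at 2 stages. Its heart cotyledon captures had 158.3, 103.9 and 473.5, against 89.6, 76.4 and 80.4 in heart root captures. LSM6B, an Sm-like protein of RNA splicing and decay complexes, rested on few arrays. It had 337.0, 11.9 and 2.8 in globular apical captures, against 6.7, 6.1 and 4.9 in globular basal captures. Its torpedo apical signals of 418.6, 375.0 and 204.2 compared with 434.3, 6.3 and 350.3 in torpedo basal captures, where basal 5 was the single dim array behind a difference of 1.25.

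Proteins of folding, ubiquitin-like modification and transport were also found. AT3G09700, a DnaJ-domain co-chaperone, had a score of 1.90. It had signals of 696.3, 223.2 and 1015 in globular apical captures, against 12.0, 404.4 and 33.8 in globular basal captures. Heart cotyledon captures had 302.6, 17.3 and 2066, against 171.5, 16.6 and 8.1 in heart root captures. Its groups overlapped at each stage. AT3G12760, a DCN1-like protein that helps attach NEDD8 to cullins, was among the brightest members. It had heart cotyledon signals of 3682, 150.6 and 16883, against 3649, 92.7 and 146.8 in heart root captures. Its torpedo apical signals of 2816, 2956 and 2211 lay inside the range of 3098, 317.2 and 1987 in torpedo basal captures.

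AT1G23410, a fusion of ubiquitin and ribosomal protein S27a, had even differences of 1.33, 1.19 and 1.23, and its groups overlapped at all 3 stages. AT4G27120, a DDRGK-domain protein, was apart only at the torpedo stage, with 140.2, 123.2 and 284.9 in apical captures, against 68.9, 6.1 and 89.2 in basal captures. AT1G62020, the alpha subunit of the COPI vesicle coat, had a torpedo difference of 0.93. That difference came from values of 510.1, 446.7 and 387.1 in apical captures, against 659.7, 28.1 and 521.4 in basal captures, where 2 of 3 basal arrays were brighter than every apical one.

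Metabolic enzymes formed another group of named members. VTC4, the L-galactose-1-phosphate phosphatase of ascorbate synthesis, had signals of 3875, 243.1 and 837.9 in globular apical captures, against 20.1, 406.3 and 267.0 in globular basal captures. Heart cotyledon captures had 2730, 146.2 and 55.2, against 940.5, 22.5 and 35.6 in heart root captures. Torpedo apical captures had 1515, 798.8 and 1786, against 1376, 134.6 and 998.7 in torpedo basal captures. The brightest array of each stage was an apical or cotyledon one, but the groups overlapped at all 3 stages. AT3G02360, a 6-phosphogluconate dehydrogenase of the oxidative pentose phosphate pathway, showed what a torpedo difference of 1.00 can hold. Its apical signals of 3157, 2263 and 2207 stood beside basal signals of 4491, 128.5 and 3215, with the brightest and the dimmest array both basal.

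AT1G63290, a ribulose-phosphate 3-epimerase, and AT3G12290, a methylenetetrahydrofolate dehydrogenase of folate-dependent carbon transfer, overlapped at each stage, with scores of 0.92 and 0.90. AT1G57770, an FAD/NAD(P)-binding oxidoreductase, had the largest globular difference of all members, 4.13. It came from signals of 4191, 1160 and 80.9 in apical captures, against 21.7, 8.6 and 130.8 in basal captures, so even there an apical array lay below a basal one. AT1G79870, a hydroxypyruvate reductase of photorespiration, was more even. It had 144.9, 274.5 and 191.5 in globular apical captures, against 123.6, 51.3 and 113.9 in globular basal captures. AT5G10560, a beta-xylosidase-type enzyme of the cell wall, was also apart at the globular stage, with 212.4, 175.8 and 334.0 in apical captures, against 31.9, 23.8 and 123.0 in basal captures.

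AT5G52970, a protein of the thylakoid lumen, had a score of 1.51. Its heart cotyledon captures had 144.6, 26.6 and 34.5, against 6.5, 17.8 and 9.9 in heart root captures. Torpedo apical captures had 189.4, 336.1 and 155.7, against 107.9, 17.8 and 139.0 in torpedo basal captures, and the groups were apart at both stages. AT5G12040, an omega-amidase that removes transamination by-products, had differences of 1.34, 1.40 and 1.45 with overlap at each stage. AT1G78210, of the alpha/beta hydrolase family, was bright in globular apical captures with 1221, 1025 and 2521, but also in 2 of the globular basal captures, with 1233, 1509 and 54.5.

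Kinases and signalling proteins were among the members too. AUR3, the Aurora kinase that marks histone H3 in dividing cells, had a score of 0.90. Its groups were apart at the heart and torpedo stages. Heart cotyledon captures had 312.8, 143.2 and 89.0, against 78.5, 85.2 and 42.8 in heart root captures, and torpedo apical captures had 180.7, 168.5 and 265.2, against 29.8, 59.8 and 153.5 in torpedo basal captures. At the globular stage a basal array, with 157.7, was the brightest. AT1G65950, of the ABC1 kinase family, AT3G51270, of the RIO kinase family, and AT4G02010, a receptor-like kinase, overlapped at each stage, with scores of 1.07, 0.95 and 0.92. AT1G50570, a C2-domain protein, had 158.8, 235.6 and 236.2 in globular apical captures, against 15.0, 76.3 and 30.5 in globular basal captures, and these groups were apart.

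Of the members for which no role is given here, AT4G28025 had one of the clearest globular patterns. Its signals of 300.0, 834.7 and 465.7 in globular apical captures compared with 21.2, 21.3 and 22.0 in globular basal captures, a difference of 3.99. Its score of 1.36 was limited by the heart stage, where cotyledon captures had 188.7, 211.0 and 22.1, against 143.5, 22.5 and 6.8 in root captures. AT2G13690 had the largest heart difference of a named gene, 4.05, from signals of 1851, 146.6 and 12163 in cotyledon captures, against 595.3, 11.6 and 50.1 in root captures. AT3G17680 was apart at the heart stage and AT3G47850 at the globular and torpedo stages. AT5G01710 was apart at the globular and heart stages, and AT3G25470 at none.

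**Figure D2:**
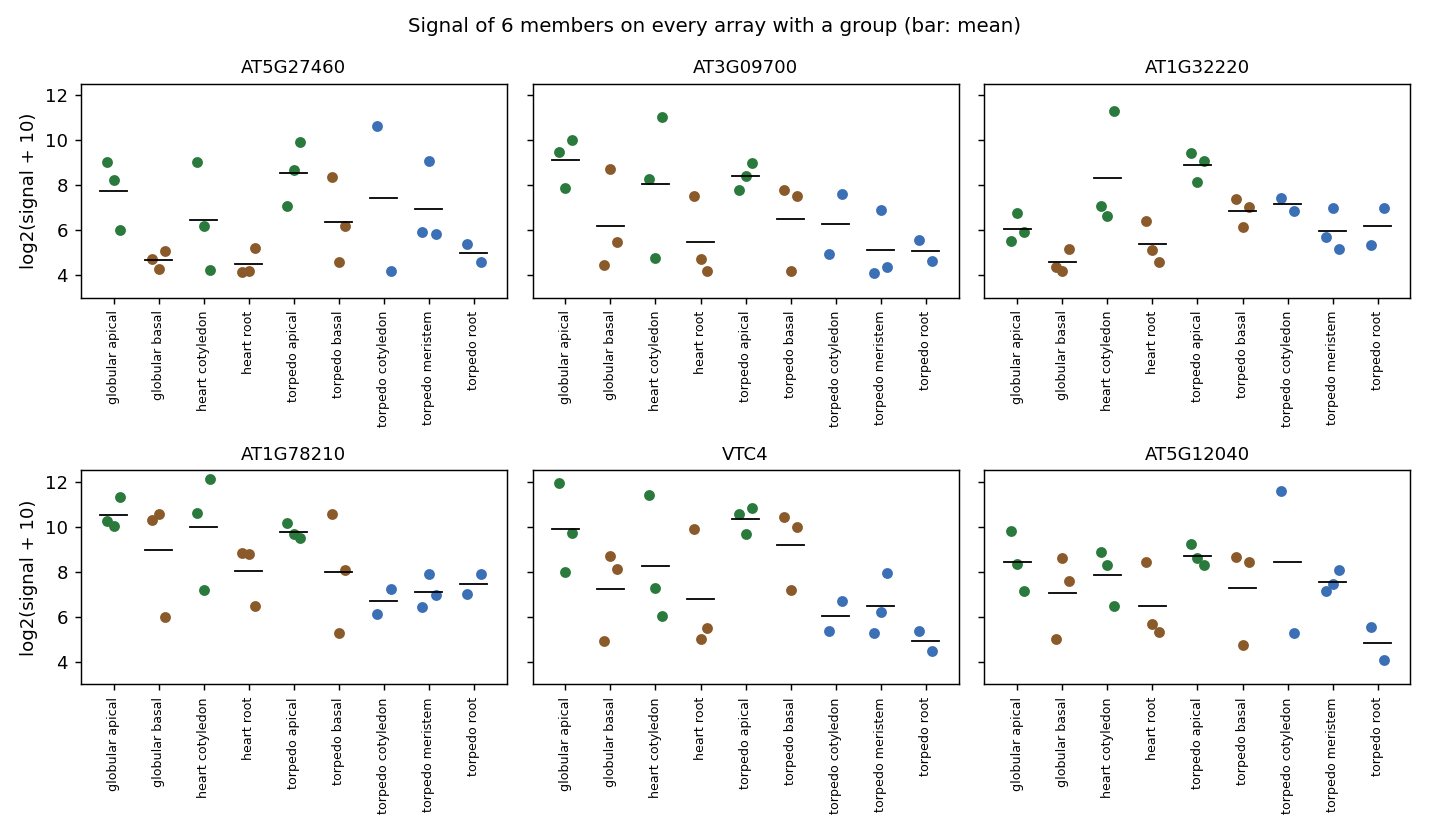
Log2(signal + 10) of 6 named members on each array with a group (vertical axis, shared) by group (horizontal axis); green points are apical or cotyledon captures, brown points basal or root captures and blue points torpedo captures that the rule did not use, and bars are group means. Single arrays of a group differ by several log2 units, as for AT1G32220, whose heart cotyledon signals run from 88.2 to 2507.

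Much of the heart signal came from single arrays. In 42 members over 80% of the summed heart cotyledon signal lay on 1 of the 3 arrays, against 19 members for globular apical and 1 for torpedo apical. The median share on the brightest heart cotyledon array was 75.6% over the members and 60.3% over all probe sets. For globular apical these shares were 55.4% and 49.9%, and for torpedo apical 43.7% and 48.3%. AT4G24700 was the extreme, with heart cotyledon signals of 3.2, 15625 and 61.6, against heart root signals of 2.6, 64.3 and 2.8. The torpedo apical group was thus the most even of the 3 high groups.

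Among the groups that the rule used, the members' median differed between replicate arrays most in the heart and torpedo basal groups. Among the other groups it differed most in torpedo meristem, from -0.62 to 1.45 relative to the array median. On the torpedo apical arrays the median member lay 2.26 to 2.74 log2 units above the median of all probe sets, and on the globular apical arrays 0.94 to 1.58. On the globular basal arrays it lay between -1.05 and -0.49. Heart cotyledon 1 had a member median of 2.39 above the array median, whereas cotyledon 2 had 0.03 and cotyledon 3 had 0.77. On heart root arrays it was 0.89 on root 1, against -1.01 on root 2 and -0.83 on root 3. On torpedo basal arrays it was 1.36 on basal 4 and 1.78 on basal 6, but -1.14 on basal 5. The members' median was therefore above the array median on some arrays of the basal side. On heart cotyledon 2 it lay near the array median.

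**Figure D3:**
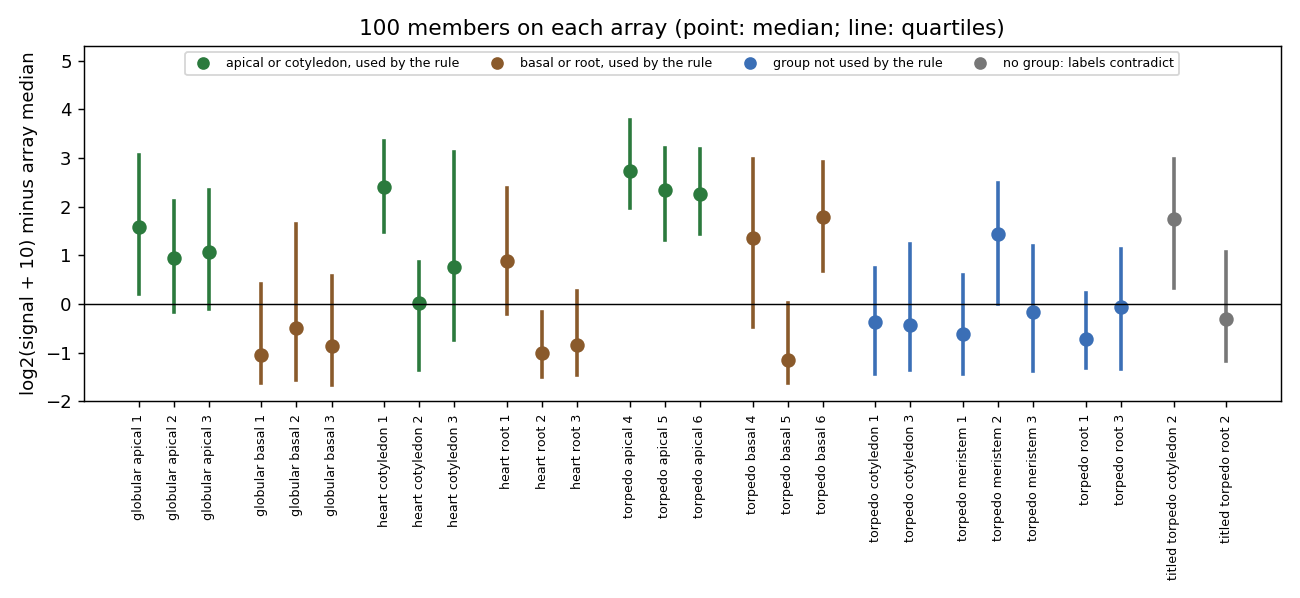
Median (point) and quartiles (line) of log2(signal + 10) of the 100 members minus the median of all probe sets (vertical axis) on each of the 27 arrays (horizontal axis). Torpedo basal 5, at -1.14, stands apart from torpedo basal 4 and 6, at 1.36 and 1.78, and heart root 1, at 0.89, from heart root 2 and 3.

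These shifts can be counted. The brightest heart cotyledon array was cotyledon 1 in 60 members and cotyledon 2 in 8, while over all probe sets it was cotyledon 1 in 24.4% and cotyledon 2 in 55.7%. The brightest heart root array was root 1 in 71 members, against 28.5% of all probe sets. The dimmest torpedo basal array was basal 5 in 65 members, against 27.4% of all probe sets. All 3 torpedo apical arrays lay above basal 5 in 93 members (24.9% of all probe sets), above basal 4 in 70 (27.5%) and above basal 6 in 46 (24.5%). All 3 heart cotyledon arrays lay above root 3 in 80 members (30.5%) and above root 2 in 76 (25.05%). They lay above root 1 in only 31 members, close to the 30.0% of all probe sets. The rule chose on these same contrasts.

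Measures of array quality differed between the same arrays. The hybridization controls did not always follow the order of the members' medians. The hybridization controls averaged 581.6 on heart cotyledon 1, against 3845 and 1590 on the other cotyledon arrays. They averaged 773.0 on heart root 1, 3296 on root 2 and 725.9 on root 3, so root 1 and root 3 were alike in the controls and unlike in the members. The log2 ratio of the 3' to the 5' actin probe set was 1.85, -1.80 and 0.31 on heart cotyledon 1 to 3. On heart root 1 to 3 it was 1.49, 0.61 and 0.44. It was 0.51, -0.95 and -0.93 on globular apical 1 to 3, and -1.14, 0.34 and -1.75 on globular basal 1 to 3. Within every group of the series, this ratio was highest on the array where the members' median lay highest relative to the array median. On torpedo basal 5 the hybridization controls averaged 791.3, against 387.6 and 637.0 on basal 4 and 6. The actin ratio was 2.39 on basal 5, against 3.76 and 4.64. Torpedo apical arrays, on which the members were highest, had control averages of 379.8 to 462.7 and actin ratios of 3.71 to 5.07. The part of array quality in the members' differences was not tested.

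Markers of tissues around the embryo were read on the same arrays. BAN, a seed coat gene of proanthocyanidin synthesis and the single seed coat marker of 8 with a name on the array, had signals of 444.6, 168.1 and 13.7 in globular apical captures, against 10.3, 91.8 and 8.5 in globular basal captures. It had 168.9 on heart cotyledon 1 and at most 22.0 on the other heart arrays. The endosperm markers AGL62 and IKU2, the 2 of 8 with a name, had a summed signal of 46.1 to 59.8 in globular apical captures, against 48.7 to 140.7 in globular basal captures. The sum was 20.6 to 119.5 in heart cotyledon captures, against 63.2 to 189.4 in heart root captures, and 10.2 to 25.3 in torpedo apical captures, against 8.52 to 51.3 in torpedo basal captures. BAN had 2.19, 13.2 and 3.66 in torpedo apical captures, against 1.72, 16.3 and 1.99 in torpedo basal captures. These torpedo values lay near or under the pseudocount of 10, so nothing is read from their order. At the earlier stages BAN was highest on globular apical 1 and heart cotyledon 1, the arrays of these groups with the highest member medians, and the part of seed coat RNA in the members' differences was not tested.

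Leaving out single arrays changed the members' differences most at the heart and torpedo stages. Without heart cotyledon 1 the median heart difference was 0.94 and 88 members kept a positive one, and without heart root 1 the median was 2.06. Without torpedo basal 5 the median torpedo difference was 0.91, with 88 members positive and 46 at 1 or more, against 86 at 1 or more with all arrays. At the globular stage the median stayed between 1.36 and 1.55 whichever array was left out, and at least 97 members kept a positive difference. Over all 18 omissions of 1 array, 72 members were positive at all 3 stages every time. The rule chose large positive differences on these arrays, so the kept sign follows in large part from the choice.

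The list changed when single arrays were left out. When the rule was applied again without each of the 18 arrays, between 57 (without torpedo basal 5) and 90 (without torpedo apical 6) of the members stayed among the 100 highest scores. Without heart cotyledon 1 or without heart root 1, 58 members stayed. Group medians in place of means kept 33 members. Quantile normalization kept 70, median centring 65, a pseudocount of 1 kept 72 and a pseudocount of 50 kept 68. 5 members stayed with every array left out in turn, namely 267452_at, 245790_at, 262596_at, 251508_at and AT1G32220.

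**Figure D4:**
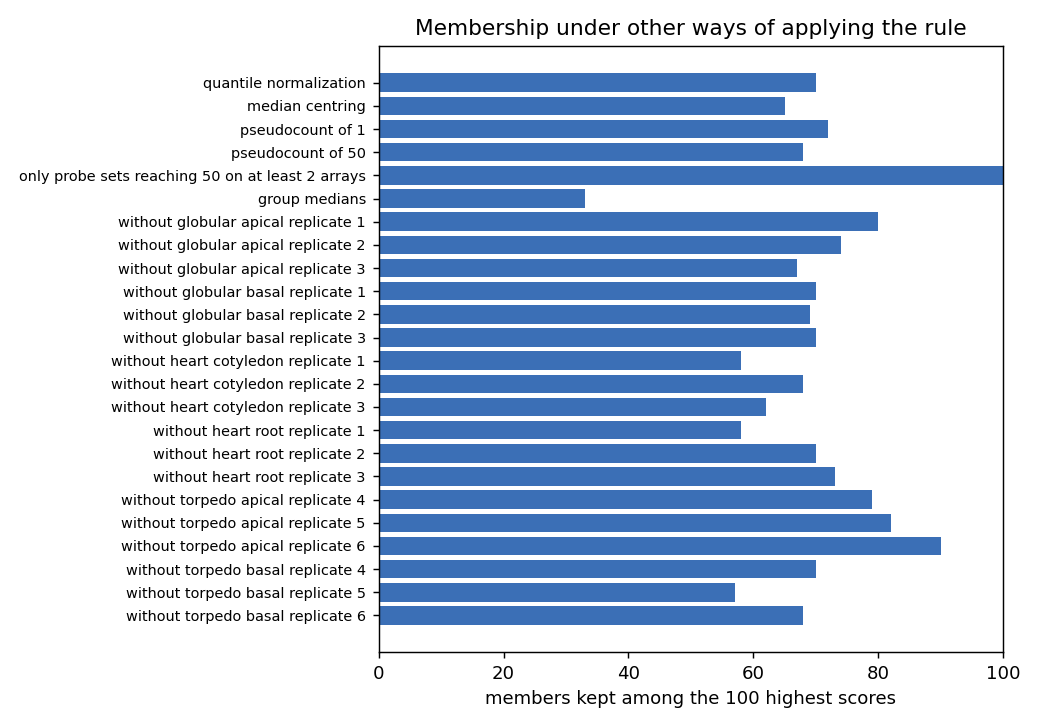
Number of the 100 members that stayed among the 100 highest scores (horizontal axis) when the rule was applied with another setting or without 1 array (rows). The number ran from 33 with group medians to 100 when only probe sets passing the filter were ranked.

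The torpedo cotyledon, meristem and root captures were not used by the rule, so that the members could be tested there. These arrays were compared with limma on all 20890 probe sets passing the filter, with p-values adjusted by Benjamini-Hochberg over all of them. Between torpedo cotyledon and torpedo root no member passed an adjusted p of 0.05. Over all probe sets 2 passed, both higher in cotyledon (0.00957%) and none lower (0.0%). At an unadjusted p under 0.05, 9 members were higher in cotyledon and 2 were lower, beside 4.04% and 7.7% of all probe sets. A positive difference was found in 40 of 100 members, against 38.7% of all probe sets. The median difference was -0.22 over the members and -0.35 over all probe sets. The share of members on the cotyledon side was thus close to that of all probe sets. This did not hold in every alternative. Without torpedo root 3, 52 members were positive against 37.6% of all probe sets, with medians of 0.05 and -0.42. Quantile normalization gave 57 members against 48.3%, and median centring 55 against 48.0%. The members' median lay above that of all probe sets in 13 of 16 alternatives. Adding the 2 contradicting arrays also moved the shares apart. By their titles, 62 members were positive against 37.0% of all probe sets, with medians of 0.34 and -0.35. By their tissue descriptions, 35 were positive against 46.2%, with medians of -0.49 and -0.09.

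All cotyledon values lay above all root values in 13 members and below them in 16, while the groups overlapped in 71. Over all probe sets the shares were 9.87% above and 26.3% below. The smallest adjusted p among the members was 0.19, for probe set 262539_at. It had signals of 14536 and 2118 in torpedo cotyledon captures, against 293.7 and 88.8 in torpedo root captures, a log2 difference of 5.01 (SE 1.52). Its meristem signals were 195.5, 1244 and 6418, a spread that covered most of the range between the other groups.

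The named members with the largest cotyledon minus root differences were uneven between the 2 cotyledon arrays. AT3G12760 had 73.1 and 6224 in torpedo cotyledon captures, against 84.1 and 13.1 in torpedo root captures, a difference of 3.95 (SE 1.98, limma adjusted p = 0.44). AT5G12040 had 3041 and 28.9, against 37.5 and 7.2 in root, a difference of 3.59 (SE 1.54, limma adjusted p = 0.36). AT3G02360 had 19416 and 104.6, against 65.4 and 312.6 in root (3.26, SE 2.27, limma adjusted p = 0.62). In each of these 3 the cotyledon arrays differed by more log2 units than the group means did.

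AT1G50570 had a more even pair, with 501.2 and 374.3 in torpedo cotyledon captures, against 60.8 and 34.0 in torpedo root captures. Its difference was 2.99 (SE 1.08, limma adjusted p = 0.26), and its meristem captures had 85.8, 86.3 and 261.4. AT3G51270 had 28.9 and 578.8 in cotyledon, against 3.9 and 14.4 in root, a difference of 3.04 (SE 1.36, limma adjusted p = 0.38). AT5G01710 had 153.5 and 323.6 in cotyledon, against 125.3 and 7.9 in root, a difference of 2.25 (SE 1.05, limma adjusted p = 0.40). For these 3 members the cotyledon arrays all lay above the root arrays, but none passed the threshold over all probe sets. AT5G27460, with 2.42, and AT3G12290, with 1.58, had adjusted p-values of 0.60 and 0.80 by limma.

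Other members had negative differences between these captures. AT1G34150 had 10.2 and 9.4 in torpedo cotyledon captures, against 91.4 and 163.8 in torpedo root captures, a difference of -2.75 (SE 1.67, limma adjusted p = 0.56). AT4G02010 had 5.9 and 12.4 in cotyledon, against 28.4 and 360.7 in root (-2.66, SE 1.70, limma adjusted p = 0.58). AT3G46210 had -1.90 and AT2G35360 had -1.84, with limma adjusted p-values of 0.52 and 0.45. In AT1G34150 the order of the groups was thus opposite to that in the torpedo apical and basal captures, where it had been chosen.

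**Figure D5:**
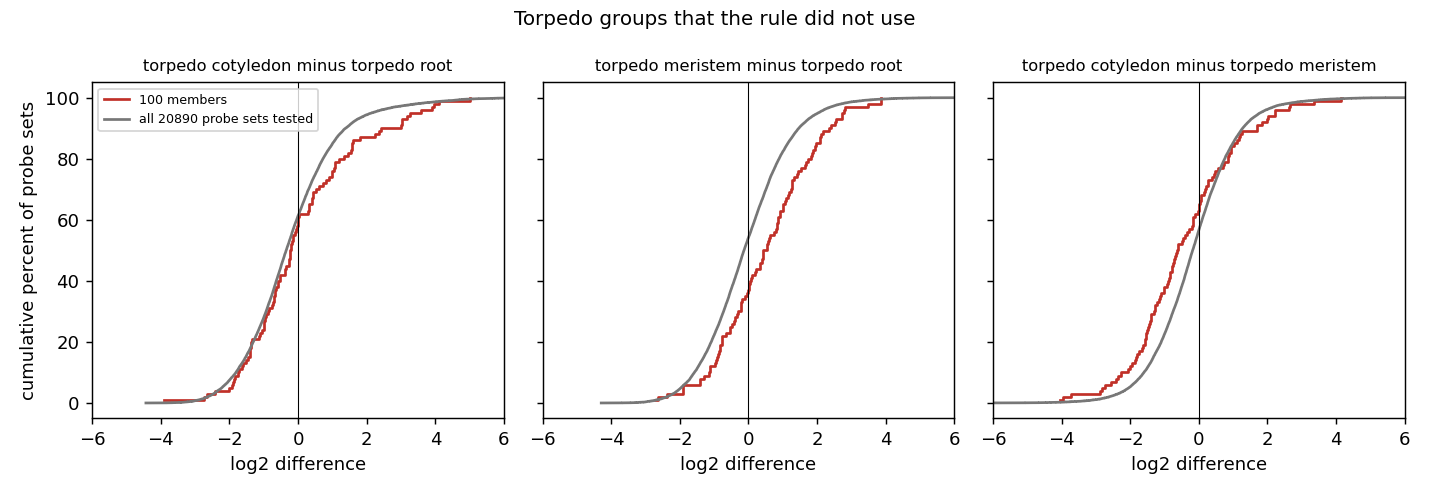
Cumulative percent of probe sets (vertical axis) by log2 difference (horizontal axis) in the 3 comparisons of torpedo captures that the rule did not use, for the 100 members (red) and all 20890 probe sets tested (grey). The members lie furthest to the right of all probe sets in meristem minus root, with medians of 0.48 and -0.13, and lie to the left in cotyledon minus meristem, with medians of -0.63 and -0.18.

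The torpedo meristem captures stood above root for more members. Of the 100 members, 63 had a positive meristem minus root difference, against 45.9% of all probe sets, and the median was 0.48 over the members and -0.13 over all probe sets. No member passed the limma threshold, and 6 of all probe sets did (4 higher, 0.0191%, and 2 lower, 0.00957%). At an unadjusted p under 0.05, 7 members were higher in meristem and 2 lower, beside 4.22% and 7.67% of all probe sets. The meristem arrays lay wholly above the root arrays in 17 members (7.84% of all probe sets) and wholly below in 8 (14.7%). Meristem 2 had a member median of 1.45 above its array median, against -0.62 on meristem 1 and -0.17 on meristem 3. Its hybridization controls averaged 500.1, against 1988 and 1571, and its log2 actin ratio was 2.58, against -1.55 and -0.81. Without meristem 2 the median difference was 0.11 over the members and -0.06 over all probe sets, and 52 members were positive against 47.8%. Grouping the 2 contradicting arrays by tissue description gave medians of -0.06 and -0.03, and 47 positive members against 48.9%. Both counts lay near those of all probe sets.

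AT3G12290 had the largest meristem minus root difference of the named members, 3.85 (SE 1.67, limma adjusted p = 0.37). Its signals were 677.0, 197.3 and 1855 in torpedo meristem captures, against 65.3 and 16.4 in torpedo root captures. AT5G12040 had 130.8, 168.4 and 258.6 in meristem, against 37.5 and 7.2 in root (2.73, SE 1.41, limma adjusted p = 0.45). AT1G23410 went the other way, with 8.29, 30.4 and 8.66 in meristem, against 72.0 and 258.0 in root (-2.63, SE 1.05, limma adjusted p = 0.32). The groups were apart in all 3 of these members.

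Between torpedo cotyledon and torpedo meristem the members' values depended on meristem 2. A positive cotyledon minus meristem difference was found in 37 members, against 43.4% of all probe sets, and the median was -0.63 over the members and -0.18 over all probe sets. Without meristem 2 these medians were -0.16 and -0.28, with 37 members positive against 40.0% of all probe sets. With the contradicting arrays grouped by title they were -0.15 and -0.20, with 46 members positive against 41.7%. No member passed the limma threshold, which 4 of all probe sets passed, 2 in each direction (0.00957% each). At an unadjusted p under 0.05, 2 members were higher in cotyledon and 6 lower, beside 3.72% and 5.47% of all probe sets. Cotyledon arrays lay wholly above meristem arrays in 8 members (7.58% of all probe sets) and wholly below in 17 (12.4%). The authors' values for the meristem arrays are unrounded and those for cotyledon and root are rounded to 1 decimal, so tissue and a difference in handling cannot be told apart.

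Probe set 252123_at was the one with the smallest unadjusted p. It had signals of 1698 and 348.1 in torpedo cotyledon captures, against 41.2, 49.8 and 18.6 in torpedo meristem captures, a difference of 4.14 (SE 0.96, limma adjusted p = 0.15). With a pseudocount of 50 it was the only member to pass the threshold in any alternative tried, with a difference of 3.29 (limma adjusted p = 0.043). Probe set 253749_at, one of the 4 with groups apart at all 3 stages, had 24.1 and 18.5 in torpedo cotyledon captures, against 13.0, 155.7 and 1578 in torpedo meristem captures (-2.55, limma adjusted p = 0.49).

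By group mean, torpedo apical was most often the group in which a member was brightest. The highest of the 9 group means was torpedo apical in 46 members, globular apical in 21, heart cotyledon in 18, torpedo meristem in 6, torpedo cotyledon in 5 and torpedo root in 4. These counts follow in part from the rule, which chose on the first 3 of these groups. The matching shares of all probe sets were not taken. The ranking also crosses a difference in handling, since torpedo apical signals are unrounded and globular apical and heart cotyledon signals have 1 decimal. The log2 actin ratio was 3.71 to 5.07 on torpedo apical arrays, against at most 1.85 on globular apical and heart cotyledon arrays. The part of handling and array quality in these counts was not tested. The median log2 signal of the members was 7.84 in torpedo apical captures, against 6.23 in torpedo basal captures. All probe sets had medians of 5.40 and 5.59 there. The members' median was 5.72 in torpedo cotyledon, 6.28 in torpedo meristem and 5.84 in torpedo root captures, where all probe sets had medians of 5.80, 6.05 and 6.18.

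The genes of the patterning and photosynthesis lists also gave no limma call in these 3 comparisons. For cotyledon minus root, the median difference was 0.67 over 3 polarity genes, -0.59 over 5 lateral organ growth genes, 0.55 over 3 shoot apex genes, -1.11 over the 7 auxin genes tested and 0.93 over 3 root pole genes. All 7 photosynthesis genes had a positive difference, with a median of 3.25. It was 1.62 to 5.29 in the 5 genes of photosystem and antenna subunits, but only 0.18 in RCA (rubisco activase) and 0.06 in PRK (phosphoribulokinase). In meristem minus root all 7 were positive too, with a median of 1.16. In cotyledon minus meristem 4 were positive, with a median of 1.15. At the heart stage, cotyledon minus root, these genes had no common side. PSBW, PSAN, LHCB4.1 and LHCB4.2 were on the root side, with -3.85, -3.23, -2.59 and -0.80. PSAE1, RCA and PRK were on the cotyledon side, with 0.75, 0.64 and 1.77.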

How the data were processed

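Per the submitters' processing notes the values were made with MAS5, and neither its version nor its settings could be taken from the labels. The authors deposited 1 intensity per probe set and array, on a linear scale, with a trimmed mean (2% at each end) near 100. Groups were taken from the array titles. The pseudocount was 10 and no further normalization was applied. Control probe sets (64 of 22810) were left out. The depth of an array has no count; the number of arrays limits the precision.

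The comparisons of torpedo cotyledon, meristem and root captures were fitted in R 4.3.3 with limma 3.58.1 (1 mean per group over 25 arrays, eBayes with an intensity trend, 2-sided, Benjamini-Hochberg over 20890 probe sets, threshold 0.05). Errors beside differences are standard errors of that fit. The script was tested on simulated data. The other steps used Python 3.11.15. Probe sets were named from the platform table, updated through RefSeq names of TAIR10.1 (13436 of 13513 single-gene probe sets matched). No sequences are shown, and a planned count of promoter motifs was not run, since no promoter table was used here.

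The members, the lists and the rule for named genes were chosen with earlier results of these data known. Named were the 20 single-gene members with the highest scores, the 8 with the largest and the 4 with the smallest torpedo cotyledon minus root difference, and the 3 probe sets on each side of the rank limit. All other members named were chosen after their values were seen.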

Additional observations from a re-analysis of the deposited data

How the results depend on the processing

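No member passed the threshold in any of the 3 comparisons under any alternative, with 1 exception (1 member in cotyledon minus meristem with a pseudocount of 50). The number of all probe sets called in cotyledon minus root, 2 in the report, was 1 with quantile normalization, 1 with a pseudocount of 1, 109 with a pseudocount of 50, 5 with no intensity trend, 0 with array weights (485 higher and 748 lower at an unadjusted p under 0.05) and 16 with only the groups compared. It was 59 with the contradicting arrays added by title, 0 with them added by tissue description (629 higher and 858 lower unadjusted), and 0 to 86 with 1 array left out, the 86 without torpedo cotyledon 3. The members' median there, -0.22, was 0.13 with quantile normalization, 0.063 with median centring, 0.34 with the contradicting arrays by title, -0.49 by tissue description, and -0.55 to 0.046 with 1 array left out. Over all probe sets the median was -0.05 with quantile normalization and -0.06 with median centring. In meristem minus root the 6 calls became 117 with quantile normalization, 49 with median centring, 0 with a pseudocount of 1 (828 higher and 1248 lower unadjusted), 223 with a pseudocount of 50, 71 with no filter, 0 with array weights (383 higher and 831 lower unadjusted), 26 with only the groups compared, 45 by title, 3 by tissue description and 0 to 18 with 1 array left out, the 18 without torpedo root 1. In cotyledon minus meristem the 4 calls became 11 with a pseudocount of 50, 1 with array weights, 1 by title, 10 by tissue description and 1 to 45 with 1 array left out, the 45 without torpedo cotyledon 3. The members' median stayed between -0.06 and 0.89 in meristem minus root and between -0.96 and -0.15 in cotyledon minus meristem. Membership kept 65 with median centring, 33 with group medians, and 57 to 90 with 1 array left out. In these 3 comparisons equal replicate numbers did not pair the arrays (correlations of deviations from -0.06 to 0.09), and with the replicate block the calls were 1, 1 and 1, no member was called, and the members' medians were -0.22, 0.56 and -0.72. The cause of these changes was not tested. With 2 or 3 arrays a group, differences below the spread between arrays could not be detected.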

Other observations

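The 2 arrays without a group differed in the members' signal. On the array titled torpedo cotyledon 2, described as root tissue, the median member lay 1.74 log2 units above the median of all probe sets. On the array titled torpedo root 2, described as cotyledon tissue, it lay at -0.31. 74 members were brighter on the array titled cotyledon than on the array titled root, against 38.7% of all probe sets. Probe set 248807_at had a signal of 12731 on the array titled cotyledon and 137.9 on the array titled root. AT3G29230 had 785.0 on the array titled cotyledon and 46.2 on the array titled root. Other bright members ran the opposite way, with 366.5 on the array titled cotyledon and 5435 on the array titled root for AT2G13690, and 1259 and 14851 for AT3G12760. BBM and JKD had a summed signal of 10.9 on the array titled cotyledon and 96.8 on the array titled root. The hybridization controls averaged 2019 on the array titled cotyledon and 49046 on the array titled root.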
